A study of Mus musculus with 6 samples.

Results

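Integrin subunits were followed in 3 sorted cell populations of the mouse left ventricle. The genes were Itga1, Itga4, Itga5, Itga6, Itga8, Itga11, Itgav, Itgb1, Itgb3 and Itgb5, and every probe set annotated with exactly 1 of these symbols was taken. A total of 32 probe sets was found for 9 of the 10 genes, out of 45101 probe sets and 18194 named genes in all. No probe set carries the symbol Itga11 alone in the annotation used here, so Itga11 was not analysed here. The main value of each gene is that of its brightest probe set, by mean log2 intensity. The cells came from male Black Swiss mice aged 8 to 10 weeks, 3 with transverse aortic constriction (TAC), in which the aorta is tied narrower so that the left ventricle pumps against a higher pressure, and 3 with a sham operation. Cells were isolated 1 week later, and pressure measurements before and after surgery had shown hypertrophy in the TAC mice. The 6 groups, with 1 array each, were Tie2cre lineage traced fibroblasts after TAC and after sham surgery, Tie2cre non-lineage traced fibroblasts (here untraced) after TAC and after sham surgery, and endothelial cells after TAC and after sham surgery. In Tie2cre mice the Tek promoter drives Cre; Tek encodes an endothelial receptor, so traced cells have, or descend from cells that had, an active Tek promoter. The labels name neither the reporter allele nor the surface markers of the sort, and they do not say whether cells of the 3 mice were pooled or whether arrays of 1 surgery share hearts. All levels are log2 of the deposited intensity and all differences are log2 differences, unless a fold is given.

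Integrins are cell surface receptors made of 1 alpha and 1 beta subunit. They bind matrix proteins outside the cell and, through talin and kindlin, the actin cytoskeleton inside it. The alpha subunits 1 and 11 bind collagens and alpha 6 binds laminins, each with beta 1 (alpha 6 also with beta 4). Alpha 5, alpha 8 and alpha v bind ligands that carry the Arg-Gly-Asp motif, such as fibronectin. Alpha v pairs with beta 1, beta 3, beta 5, beta 6 or beta 8, and several of these pairs bind latent TGF-beta, a growth factor of fibrosis.

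The bases upstream of the start site are shown for 3 members on which the results turn: Itga1, the member with the largest TAC difference in fibroblasts, Itga8, the detected member that was lower after TAC in all 3 populations, and Itgb5, the member with the largest called difference on the fibroblast side. The sequences are those of RefSeq on GRCm38.p6, 5′ to 3′ on the strand of the gene. The Itga1 window is chr13:115101965-115102214 on the minus strand. The Itga8 window is chr2:12301986-12302194 on the minus strand and ends 42 bases before the start site, where the annotated gene begins. The Itgb5 window is chr16:33829415-33829664 on the plus strand. Capitals mark GC boxes (GGGCGG on either strand).
Itga1: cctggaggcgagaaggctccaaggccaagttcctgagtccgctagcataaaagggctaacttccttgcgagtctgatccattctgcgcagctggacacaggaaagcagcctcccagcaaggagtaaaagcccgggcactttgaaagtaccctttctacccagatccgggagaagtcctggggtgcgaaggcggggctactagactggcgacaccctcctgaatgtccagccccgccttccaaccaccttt
Itga8: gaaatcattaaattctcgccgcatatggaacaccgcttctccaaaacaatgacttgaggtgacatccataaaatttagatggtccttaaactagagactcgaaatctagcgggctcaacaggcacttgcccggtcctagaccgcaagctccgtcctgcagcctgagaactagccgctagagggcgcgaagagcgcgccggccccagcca
Itgb5: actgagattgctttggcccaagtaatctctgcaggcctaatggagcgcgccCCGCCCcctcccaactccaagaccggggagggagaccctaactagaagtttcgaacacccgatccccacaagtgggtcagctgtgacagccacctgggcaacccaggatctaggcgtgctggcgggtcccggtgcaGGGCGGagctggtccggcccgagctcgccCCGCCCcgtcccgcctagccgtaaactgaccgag

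Itgb5 holds 3 GC boxes in its 250 bases, at 199 to 194, 63 to 58 and 34 to 29 bases before the start site, while the letters are not in the windows of Itga1 and Itga8. Of 32851 mouse windows of 250 bases 32.7% hold a GC box, and 26.5% do over the 209 bases of the Itga8 window. Searched on both strands, the AP-1 motif TGANTCA, the TEAD motif GGAATG and the CArG box of serum response factor had no match in the 3 windows shown, and no matches of different motifs overlapped. These motifs stand in 6.75%, 12.6% and 1.47% of the windows of 250 bases. Among members whose windows are not shown, Itga5 holds 2 GC boxes, Itgb1 and Itga4 hold 1 each, and Itgb1 holds 1 TEAD match. Itga11 holds none of these motifs. No window was available for Itga6 or Itgb3.

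Median intensity was 106.6 to 115.2 over the arrays. A gene counts as detected in a comparison where it exceeded the array's median on 1 or more of the arrays involved. The fibroblast marker list stood at a median of 13.03 to 13.21 on the 4 fibroblast arrays, with all 10 genes above the array median, and the endothelial list at 12.95 and 13.26 on the TAC and sham endothelial arrays, also with all 10 above it. Tek itself was at 10.70 and 11.76 on the traced TAC and sham arrays. On the untraced TAC and sham arrays it was no lower, at 11.14 and 11.91. Pecam1 and Cdh5, by contrast, were at 6.76 to 8.10 on the fibroblast arrays. The endothelial TAC array stands apart. All 10 fibroblast markers were at least 2-fold higher on it than on the endothelial sham array, by 1.10 to 4.43 with a median of 3.03. Their median level was 10.99 on the endothelial TAC array and 8.00 on the endothelial sham array. The untraced TAC array had 18S ribosomal RNA (the probe set at the 3′ end) at 11.30, against 14.16 to 14.76 on the other 5 arrays. In such bulk samples fewer cells of a type and less RNA per cell cannot be told apart.

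The first comparison asks which subunits separate fibroblasts from endothelial cells. Fibroblasts had higher Itgb5, Itga8 and Itgav, the subunits of receptors for vitronectin, fibronectin and nephronectin, and endothelial cells had higher Itga6, the laminin-binding subunit. Of the 8 detected members 3 were called higher in fibroblasts, beside 11.5% of 12257 genes, and 1 was called higher in endothelial cells, beside 6.5% of genes. Itga5 and Itgb1, the fibronectin receptor pair, were close in both cell types. The call needs a limma adjusted p under 0.05 over all detected genes and at least a 2-fold difference, with the traced and untraced arrays of 1 surgery averaged, so that each cell type has 2 values.

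Itga6 stood at 6.20 on the traced TAC array, 6.16 on the traced sham array, 6.52 on the untraced TAC array and 6.55 on the untraced sham array, against 12.43 on the endothelial TAC array and 12.70 on the endothelial sham array. All 4 fibroblast values lie below the median of their array, at percentiles of 40.4 to 47.4, and the groups do not overlap. The difference was -6.21 ± 0.232 (standard error, as in the other limma values here), or 73.8-fold, with an adjusted p of 0.00382 in limma, a size that rests on dim fibroblast values. The second probe set of Itga6 gave -6.75. The endothelial marker genes Pecam1 and Cdh5 differed by -6.01 and -6.36 in the same fit.

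Itgb5, whose protein pairs with alpha v as a vitronectin receptor, stood at 12.94 and 12.46 in traced fibroblasts after TAC and sham and at 12.98 and 12.58 in untraced fibroblasts, against 9.62 and 9.18 in endothelial cells. The 4 fibroblast arrays all lie above both endothelial arrays by more than the spread within either cell type. Its difference was 3.34 ± 0.299 (limma adjusted p = 0.00749), or 10.1-fold, and its 4 probe sets gave 2.79 to 3.34. The main probe set is of a design that can also bind other transcripts, and the one of the 4 without such a suffix gave the 2.79. Itgav stood at 11.74 and 11.24 in traced fibroblasts after TAC and sham and at 11.89 and 11.13 in untraced fibroblasts, against 9.70 and 8.63 in endothelial cells. The fibroblast and endothelial values do not overlap here either. The Itgav difference was 2.34 ± 0.463 (limma adjusted p = 0.0351), or 5.05-fold, and of its 4 brighter probe sets 3 were above 0 and the dimmest gave -0.16. Without the endothelial sham array it was 1.80 and lost its call (limma adjusted p = 0.0818), as it did with the mean of all 5 probe sets, at 1.17 (limma adjusted p = 0.0672).

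Itga8, whose protein binds nephronectin with beta 1, stood at 9.25 and 10.23 in traced fibroblasts after TAC and sham and at 9.11 and 9.84 in untraced fibroblasts, against 6.09 and 6.91 in endothelial cells. The endothelial values lie near or below the array median, at percentiles of 39.4 and 51.1. Its difference was 3.10 ± 0.446 (limma adjusted p = 0.0179), or 8.59-fold, and the second probe set gave 3.79. Itgb3, the partner of alpha v and of the platelet subunit alpha IIb, stood at 11.18 and 10.13 in traced fibroblasts after TAC and sham and at 11.31 and 10.49 in untraced fibroblasts, against 9.67 and 7.06 in endothelial cells. It was higher on every fibroblast array, but its difference of 2.42 ± 0.940 did not pass (limma adjusted p = 0.148). Without the endothelial TAC array it was 3.72 and passed (limma adjusted p = 0.0277), and with surgery as a block it also passed (limma adjusted p = 0.0104). The second, dimmer probe set of Itgb3 gave 0.66.

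Itga1, the collagen-binding subunit, ran the other way. It stood at 10.67 and 9.45 in traced fibroblasts after TAC and sham and at 10.56 and 9.35 in untraced fibroblasts, against 11.84 and 12.39 in endothelial cells. Every endothelial array lies above every fibroblast array, most clearly at sham. The fibroblast minus endothelial difference was -1.23 on the TAC arrays and -2.99 on the sham arrays. Its mean of -2.11 ± 0.489 missed the threshold (limma adjusted p = 0.0506), and over the 16 alternative fits the limma adjusted p ran between 0.00318 and 0.171. The lowest value came from entering the 6 arrays singly, which counts the traced and untraced arrays of 1 surgery as separate values. Itga1 passed without the traced TAC array (limma adjusted p = 0.0442), without the traced sham array (0.0491) and without the untraced sham array (0.0497). It did not pass without the untraced TAC array (limma adjusted p = 0.0574), without the endothelial TAC array (0.0790) or without the endothelial sham array (0.171), and it passed with surgery as a block (0.0183). Itgb1, the common beta subunit, lay between 12.25 and 12.84 on the fibroblast arrays, against 12.87 and 12.59 on the TAC and sham endothelial arrays, and its difference was -0.19 (limma adjusted p = 0.64). Itga5, the fibronectin-binding subunit, lay between 11.28 and 11.70 on the fibroblast arrays, against 12.02 and 11.28 on the TAC and sham endothelial arrays, and its difference was -0.14 (limma adjusted p = 0.796). With standard errors of 0.263 and 0.345, these fits do not show that the levels are the same. Itga4, a subunit of leukocyte receptors for VCAM1 and fibronectin, was not detected: its main probe set lay at 5.38 to 6.05 on fibroblast arrays and at 5.89 and 6.05 on the TAC and sham endothelial arrays, and all 5 of its probe sets were below the median of every array.

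**Figure D1:**
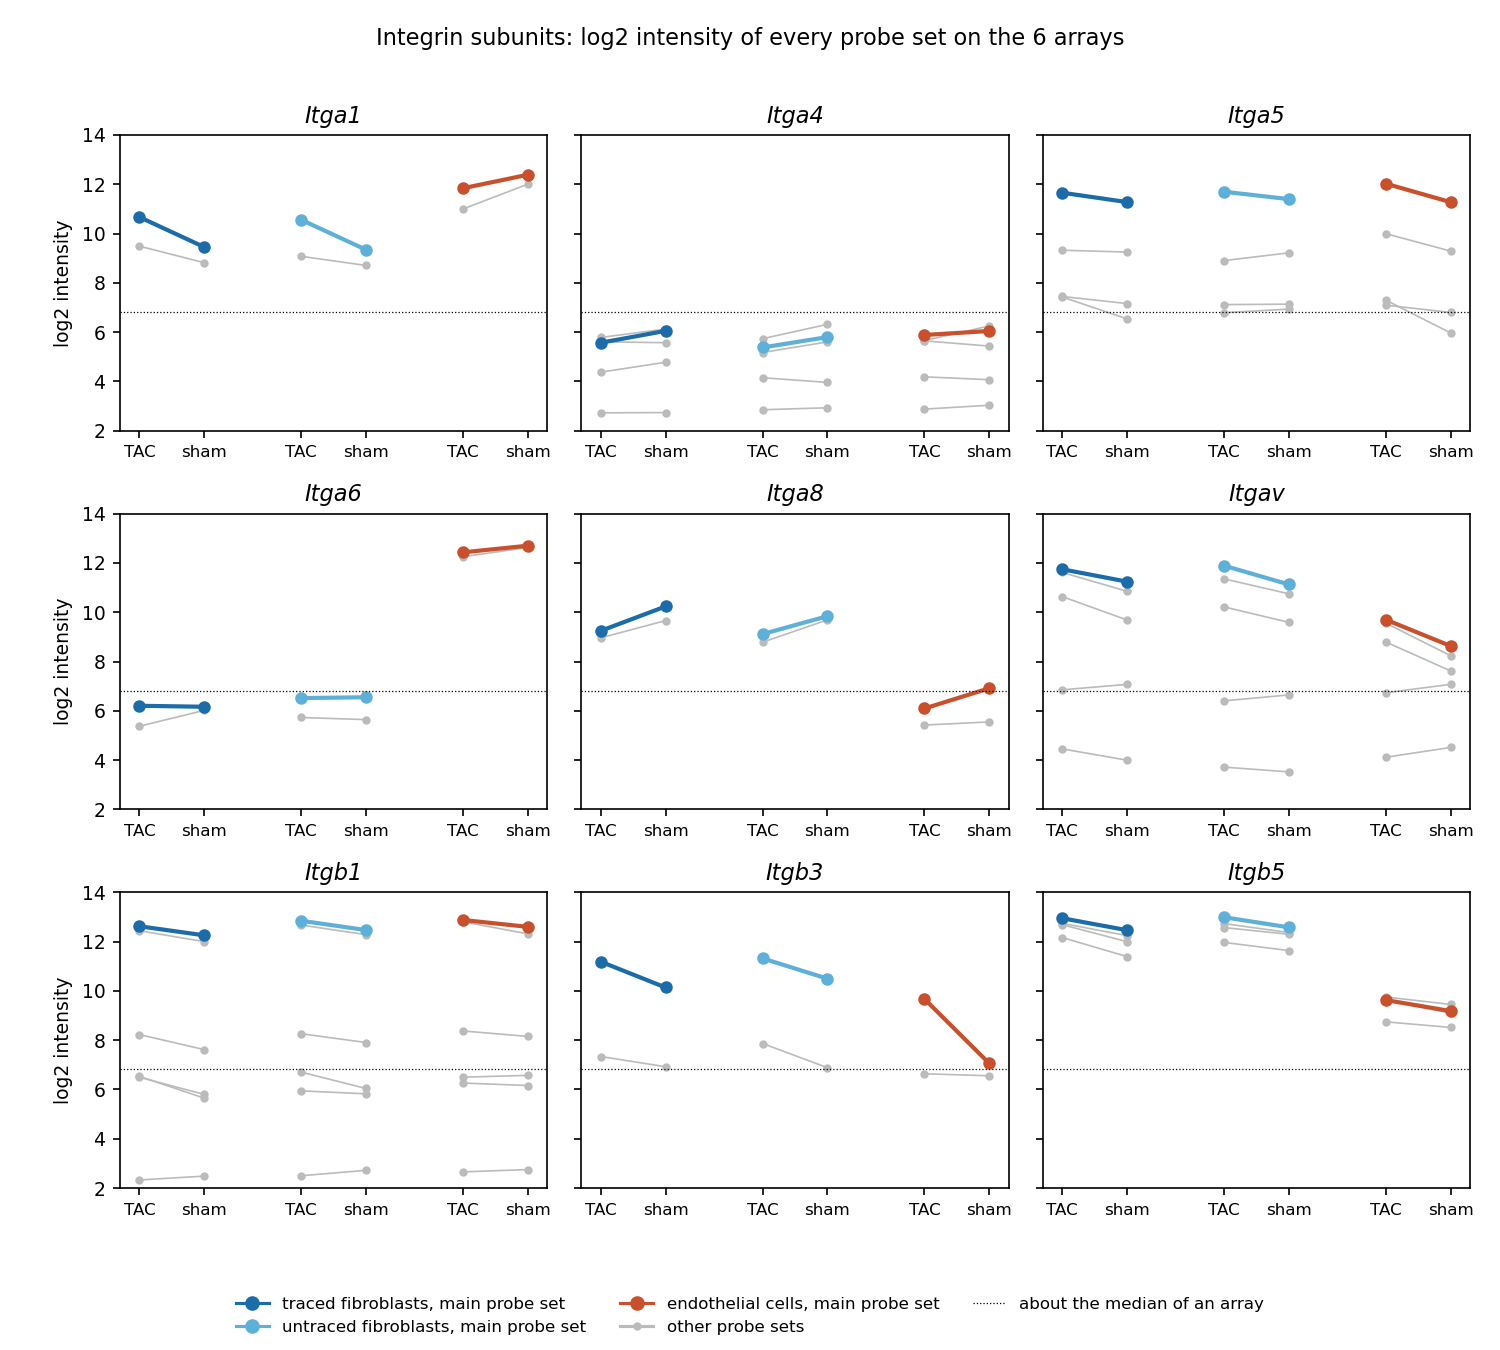
Log2 intensity (vertical axis) of every probe set of the 9 integrin genes on the 6 arrays, with TAC left of sham within each population. Coloured lines join the main probe set (dark blue traced fibroblasts, light blue untraced fibroblasts, red endothelial cells) and grey lines the others. Itga6 is near 12.5 only on the red points, while Itgb5, Itga8 and Itgav are higher on the blue points.

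One technical measure also differed by cell type. The median of 9 spike-in probe sets was 11.40 to 12.11 on the fibroblast arrays, against 12.58 and 12.74 on the TAC and sham endothelial arrays, and its part in the integrin differences was not tested. The p-values test the difference between cell types against a spread that comes only from the difference between the TAC and sham values within a cell type.

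**Figure D2:**
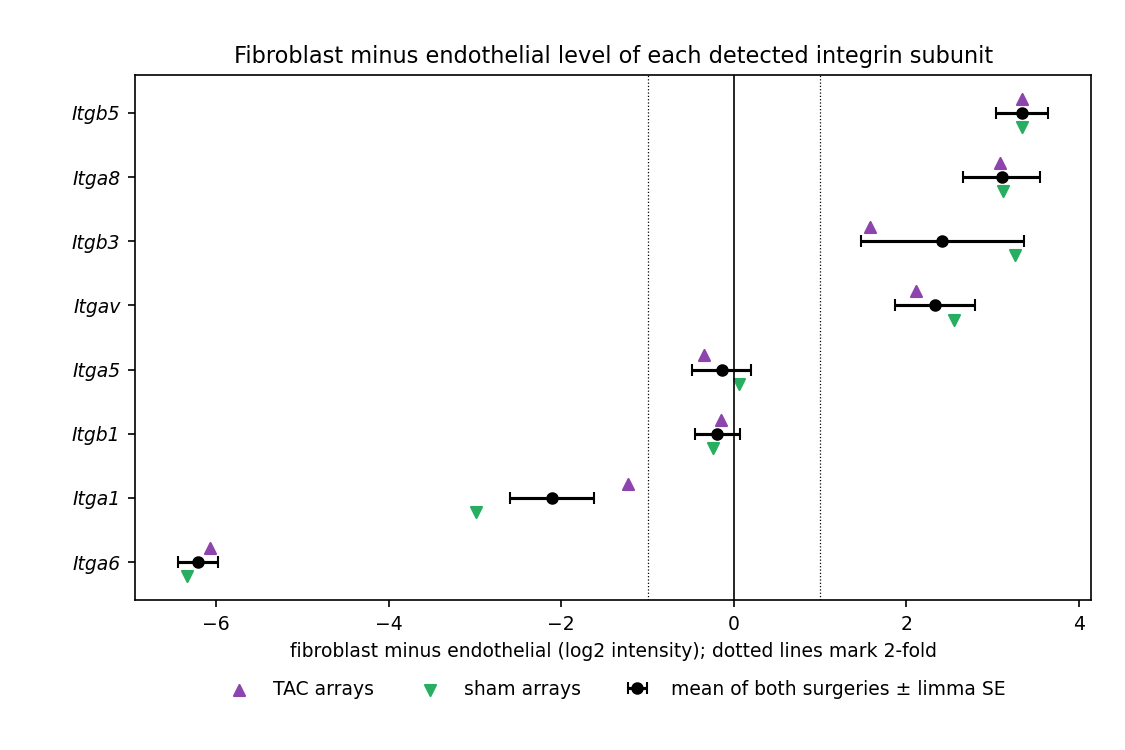
Fibroblast minus endothelial level (log2, horizontal axis) of the 8 detected members, on the TAC arrays (upward triangles), on the sham arrays (downward triangles) and as the mean with its limma standard error (black). Itgb5, Itga8 and Itgav lie right of 2-fold at both surgeries, Itga6 lies near -6 at both, and Itga1 is closer to 0 on the TAC arrays.

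The second comparison asks how the subunits differ between TAC and sham fibroblasts. Itga1 was the highest relative to sham, 2.32-fold on average, followed by Itgb3 at 1.91-fold and Itgav at 1.55-fold, while Itga8 was 1.81-fold lower. Of the 7 members detected in fibroblasts 1, Itga1, was at least 2-fold higher in both populations, beside 4.33% of 11623 genes, and 0 were at least 2-fold lower, beside 1.79% of genes. With 1 array per group none of these differences was tested. The median difference of the 7 members was 0.45, and the medians of all detected genes were 0.08 in traced and 0.02 in untraced fibroblasts.

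Itga1 was 1.21 higher after TAC in traced fibroblasts and 1.21 higher in untraced fibroblasts. Its second, dimmer probe set gave 0.67 and 0.37, so the 2-fold size rests on 1 of 2 probe sets although the direction is shared. All 10 endothelial markers were lower in TAC than in sham fibroblasts, with means of the 2 populations between -1.30 and -0.36 and a median of -0.75, and their part in the Itga1 difference was not tested. Itgb3 was 1.05 higher after TAC in traced fibroblasts and 0.82 higher in untraced fibroblasts, and its second probe set gave 0.42 and 0.98. Both TAC arrays thus lie above both sham arrays on each probe set of Itga1 and Itgb3. Without the untraced arrays Itgb3 also passed 2-fold, making 2 members, beside 6.19% of genes in traced fibroblasts alone, and 0 were at least 2-fold lower there, beside 2.66%. Without the traced arrays the count was 1, Itga1, beside 4.98% of genes in untraced fibroblasts alone, and 0 were at least 2-fold lower, beside 2.95%.

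Itgav was 0.50 higher after TAC in traced and 0.76 higher in untraced fibroblasts. Of its 4 probe sets above the median of at least 1 array 3 were higher in both populations and the dimmest of them was lower (-0.22 and -0.24). Itgb5 was 0.48 and 0.41 higher, with all 4 probe sets above 0 in both populations, and Itgb1 was 0.37 and 0.38 higher, with all 3 of its brighter probe sets above 0. These are small differences that recur on nearly every probe set. Itga5 was 0.38 and 0.30 higher on its main probe set, but in untraced fibroblasts the other 3 of its 4 probe sets were below 0, down to -0.32. Itga6, at dim levels, lay at 0.04 and -0.03, its second probe set gave -0.64 in traced fibroblasts, and the sign of the untraced value turned under quantile normalization and median centring.

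Itga8 was the detected member that lay lower in both fibroblast populations, with differences of -0.99 in traced and -0.73 in untraced fibroblasts. Its second probe set gave -0.70 and -0.90. Most mural cell markers, though not all, were lower as well. Averaged over traced and untraced fibroblasts, 7 of 10 were lower after TAC than after sham surgery, the lowest at -2.06, and the list's median was -0.69. Of the 9 detected 4 were at least 2-fold lower in both populations, beside 1.79% of genes. These were Myh11 (-1.92 and -1.71), Abcc9 (-1.39 and -1.83), Kcnj8 (-1.07 and -1.49) and Vtn (-1.63 and -2.50). In the other direction 1, Mcam, was at least 2-fold higher (2.34 and 1.67), beside 4.33% of genes. Cspg4 was also higher (0.61 and 0.83), and Rgs5 lay at 0.28 and -0.03. The part of the mural cell list in the Itga8 difference was not tested. At a 1.5-fold limit Itga8 counts as lower in both populations, beside 4.86% of genes, and Itgb3 joins Itga1 among the higher ones, beside 8.9% of genes.

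Endothelial cells showed 2 members at least 2-fold higher after TAC, Itgb3 and Itgav, of 8 detected, beside 10.9% of 11157 genes, and 0 at least 2-fold lower, beside 1.83% of genes. Itgb3 was 2.61 higher, or 6.11-fold, at 9.67 on the endothelial TAC array and 7.06 on the endothelial sham array. Its second probe set was near the array median and differed by 0.08, so the size rests on 1 of 2 probe sets, and the mean of both gave 1.35. Itgav was 1.07 higher, its 2 other bright probe sets gave 1.17 and 1.31, and the dimmer one gave -0.34. It was 0.56 higher with the mean of its 5 probe sets and 0.85 higher under quantile normalization, which moves the median of all endothelial differences to 0.05 from 0.18 as deposited. Itga5 was 0.75 higher, Itgb5 0.44 higher and Itgb1 0.28 higher.

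Itga1 was lower on the endothelial TAC array, with TAC minus sham at -0.55 and at -1.0 on its second probe set. For Itga6 the difference was -0.27 and for Itga8 -0.82, with -0.13 on the second probe set of Itga8. Beside these values stand the fibroblast markers, higher on the endothelial TAC array for 10 of 10 genes. Their part in the endothelial differences was not tested. Of the members called higher in fibroblasts, Itgav was 1.07 higher on that array, Itgb5 was 0.44 higher, and Itga8 was lower (-0.82). Itgb3, not called but higher on every fibroblast array than in endothelial cells, was 2.61 higher on the endothelial TAC array. Platelet and megakaryocyte markers, listed because platelets carry beta 3, were higher there for 8 of 9 genes, with a median of 0.39 and a range of -0.61 to 1.75. The largest of these differences were those of Ppbp (1.75), Tubb1 (1.62) and Gp1bb (0.74), with Tubb1 and Gp1bb below the median of both endothelial arrays. Pf4 and Gp9 differed by 0.20 and 0.22, and the lower gene was Clec1b (-0.61). The part of platelet RNA in the Itgb3 difference was not tested. Macrophage markers were higher for 8 of 10 genes, with a range of -0.71 to 1.74, and 4 of 8 leukocyte markers lay above 0, with 1 of 8 above the array median. Mural cell markers were lower on the endothelial TAC array for 9 of 10 genes, with a median of -0.61 and a range of -1.19 to 1.46. Cardiomyocyte markers were lower there for 8 of 10 genes, with a median of -1.11 and a range of -2.07 to 1.16. Of the 8 detected 6 were at least 2-fold lower, beside 1.83% of genes. Endothelial markers were lower there for 10 of 10 genes, with a median of -0.27 and a range of -0.45 to -0.02. Of these 0 were at least 2-fold lower, beside 1.83% of genes. The part of these lists in the lower values of Itga1, Itga6 and Itga8 was not tested. By main probe sets, 5 of the 8 detected members lay above 0 in all 3 populations, beside 33.9% of 12257 genes. They were Itga5, Itgav, Itgb1, Itgb3 and Itgb5. In the same count 1 (Itga8) lay below 0 in each, beside 18% of genes. For Itga5 the other 3 of its 4 probe sets lay below 0 in untraced fibroblasts. Without probe sets that carry a suffix the mean fibroblast difference of Itga5 was -0.12.

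**Figure D3:**
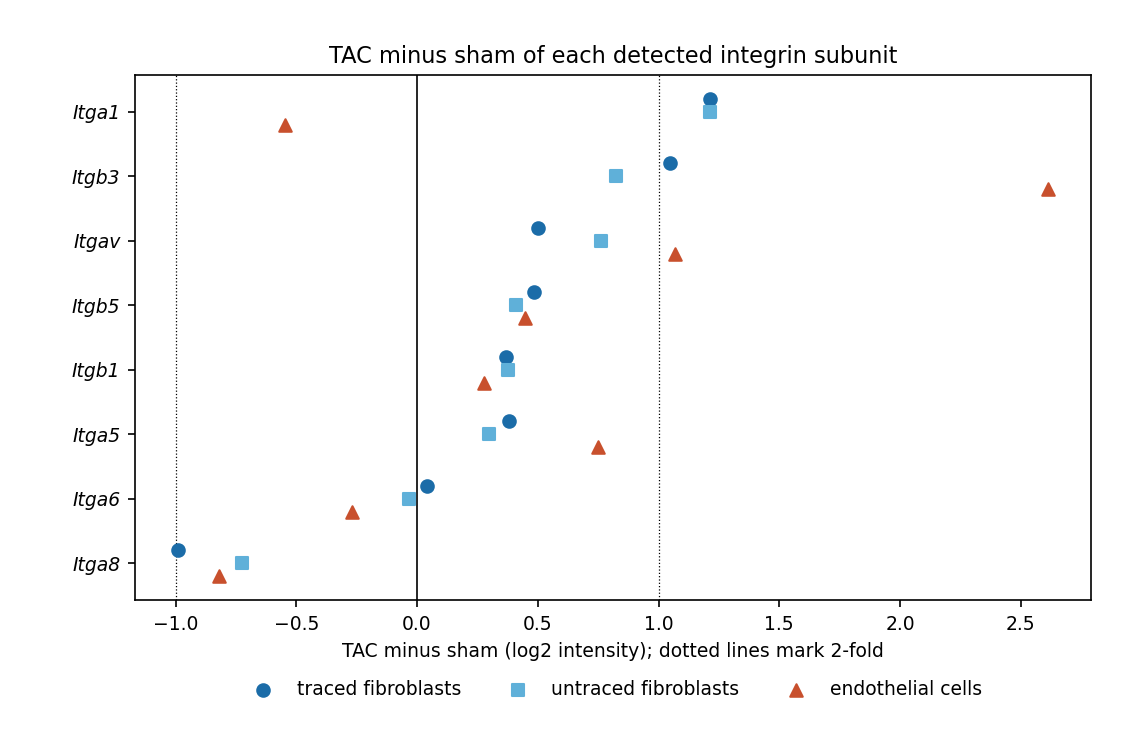
TAC minus sham (log2, horizontal axis) of the main probe set of the 8 detected members. Traced fibroblasts are circles, untraced fibroblasts squares and endothelial cells triangles. The 3 symbols of Itgav, Itgb5, Itgb1, Itga5 and Itgb3 lie right of 0 and those of Itga8 left of it, while Itga1 has its fibroblast symbols at 1.21 and its endothelial symbol at -0.55.

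The third comparison asks whether traced and untraced fibroblasts differ. No detected member reached 2-fold at either surgery: of 7 members 0 were at least 2-fold higher and 0 at least 2-fold lower at both, beside 0.0344% of genes in each direction. Traced minus untraced differences were 0.13 after TAC and 0.39 at sham for Itga8, the widest positive ones, and -0.13 after TAC and -0.36 at sham for Itgb3. Itgb1 gave -0.22 after TAC and -0.21 at sham. Itga1 gave 0.11 and 0.11, and Itgav, at -0.15 after TAC and 0.11 at sham, changed its sign between surgeries. None of these was tested, since each is a difference of 2 arrays.

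The other genes of integrin adhesion were described with lists written from textbook knowledge. Of 15 other integrin subunits found 9 were detected. Of these 1 was called higher in fibroblasts, beside 11.5% of genes, and 0 in endothelial cells, beside 6.5%. The called gene was Itgb8, a partner of alpha v (limma adjusted p = 0.0165). It stood at 8.37, 7.80, 8.79 and 7.81 in traced TAC, traced sham, untraced TAC and untraced sham fibroblasts. In TAC and sham endothelial cells it stood at 4.15 and 2.36. Both endothelial values lie below the lower quartile of their array, 5.14 after TAC and 5.24 at sham. After TAC 0 of 8 were at least 2-fold higher in both fibroblast populations, beside 4.33% of genes. Itga10, a collagen-binding subunit, was 1.6 higher in traced and 0.51 higher in untraced fibroblasts, but exceeded the array median only on the traced TAC array. Itga9, a tenascin receptor subunit, was 1.04 and 0.78 higher. Itga2, also a collagen-binding subunit, was 1.62 higher in endothelial cells after TAC. The leukocyte subunits Itgal, Itgam, Itgax and Itgb2 lay below the median on every array.

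Adapters and kinases of the adhesion complex had a median TAC difference near 0. Of 28 detected 1 was called higher in fibroblasts, the kinase gene Src (2.68, limma adjusted p = 0.0107), beside 11.5% of genes. In endothelial cells 2 were called higher, beside 6.5% of genes, the parvin gene Parvb (-4.34, limma adjusted p = 0.00382) and Arhgef7 (-1.28, limma adjusted p = 0.0359). After TAC 1 of the 28 was at least 2-fold higher in both fibroblast populations, alpha actinin Actn1 (2.04 and 2.07), beside 4.33% of genes. In the other direction 1 was lower, Lims2, a partner of integrin-linked kinase (-1.82 and -1.65), beside 1.79% of genes. Tns3, a tensin, was 1.08 higher in traced and 0.96 higher in untraced fibroblasts and 1.98 higher in endothelial cells. The list's median TAC difference was 0.02 in fibroblasts and -0.01 in endothelial cells, beside 0.18 for all genes detected in endothelial cells.

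Ligand genes had a median TAC difference of 0.26 in fibroblasts and 0.79 in endothelial cells. Of 25 detected in fibroblasts 3 were at least 2-fold higher after TAC in both populations, beside 4.33% of genes. These were the tenascin gene Tnc (2.76 and 3.84), fibronectin, Fn1 (1.63 and 2.01), and the thrombospondin gene Thbs1 (1.70 and 1.79). In the other direction 1 was lower, vitronectin, Vtn (-1.63 and -2.50), beside 1.79% of genes. In endothelial cells 11 of 26 were at least 2-fold higher after TAC, beside 10.9% of genes, led by Postn at 5.55 and Tnc at 4.62. There 0 were lower, beside 1.83% of genes. This is the array on which all 10 fibroblast markers were higher. Col1a1, Col1a2 and Col3a1, which are also in the fibroblast marker list, are among the 11. Between cell types 2 of 26 were called higher in fibroblasts, Vcam1 (2.16) and Ltbp1 (1.87), beside 11.5% of genes. In endothelial cells 3 were called higher, Icam2 (-5.59), the laminin gene Lama5 (-2.44) and Tgfb1 (-1.49), beside 6.5% of genes. Of 14 detected partner receptors and regulators 4 were called higher in fibroblasts, beside 11.5% of genes. These were the collagen receptors Ddr1 at 4.17 and Ddr2 at 4.07, the syndecan Sdc4 at 4.11 and Thy1 at 3.30. Another 3 were called higher in endothelial cells, beside 6.5% of genes, namely Cav1 at -3.52, Nrros at -2.93 and Plaur at -1.47. After TAC 2 of 13 were at least 2-fold higher in both fibroblast populations, beside 4.33% of genes. They were Sdc1 (1.79 and 1.5) and the hyaluronan receptor Cd44 (1.15 and 1.23). In endothelial cells 4 of 13 were at least 2-fold higher, beside 10.9% of genes, with Sdc4 at 2.01 and Sdc1 at 1.62. Ddr2 is also in the fibroblast marker list. Arhgef7, Vcam1, Ltbp1, Tgfb1, Ddr2, Thy1, Nrros and Plaur were named after their values were seen.

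**Figure D4:**
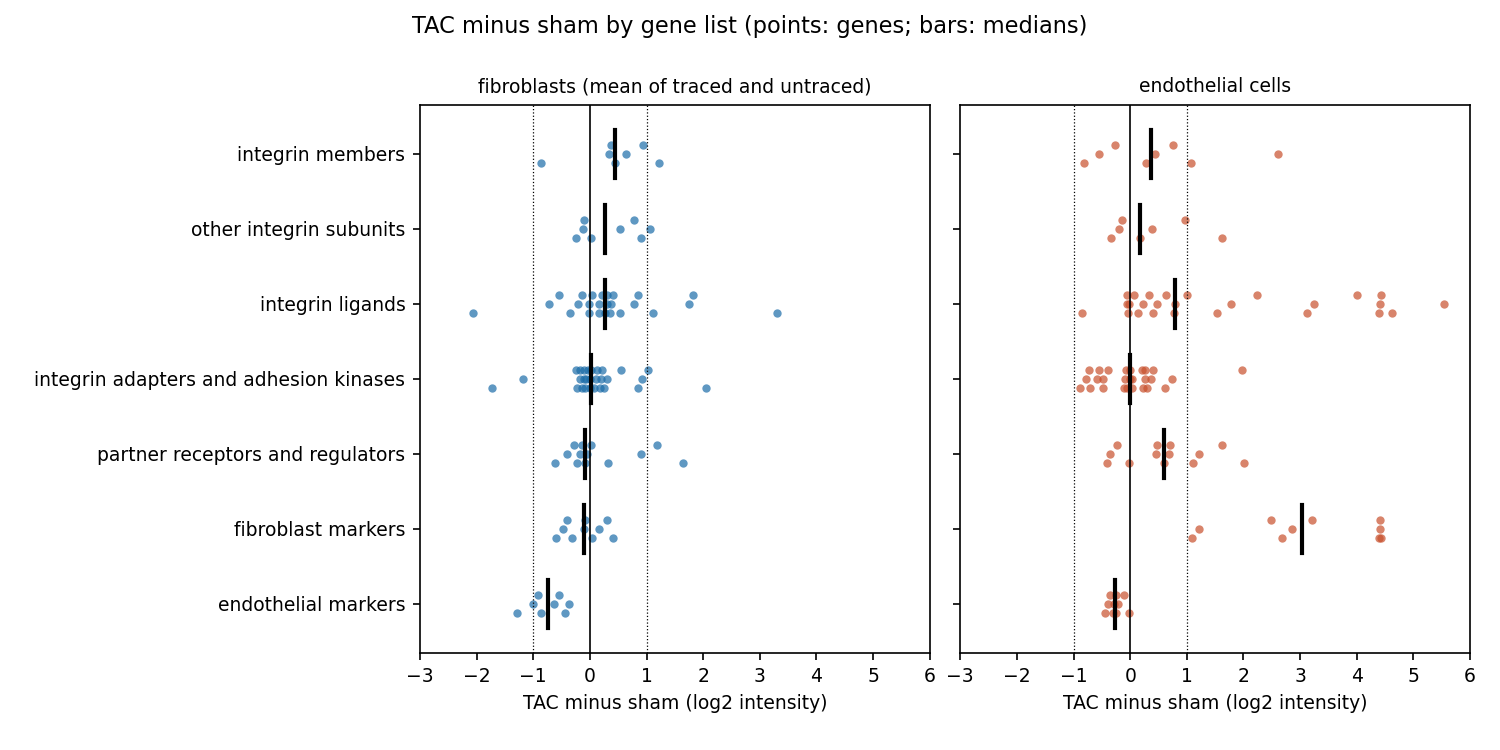
TAC minus sham (log2, horizontal axis) of the detected genes of each list, in fibroblasts (left, mean of traced and untraced) and in endothelial cells (right). Points are genes and black bars medians. The fibroblast markers have a median of 3.03 in endothelial cells and -0.10 in fibroblasts, and the integrin members 0.36 and 0.45.

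Genes with the pattern most like a member were sought by Pearson correlation over the 6 arrays among 4983 detected genes whose standard deviation was at least 0.5. For Itga1 they were Inf2 (0.997), Plod1 (0.996) and Atoh8 (0.994), each higher after TAC in fibroblasts, by 1.13, 0.57 and 1.07 on average, and lower in endothelial cells, at -0.41, -0.19 and -0.67. In all, 72 of 12257 detected genes, or 0.587%, were at least 2-fold higher in both fibroblast populations and below 0 in endothelial cells. This pattern was taken from the main probe set of Itga1, so its share is no test of Itga1. The second probe set of Itga1, at 0.67 and 0.37 in fibroblasts, falls short of 2-fold. For Itgb5 the nearest genes were Paqr7, Sec16b and Sema3b (0.999 each), and for Itga6 they were Gimap4, Efna1 and Pik3r6 (1.000 each, rounded). With 6 arrays that share cell type and surgery many genes reach such values, which are given as a description.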

How the data were processed

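The authors deposited 1 linear intensity per probe set and array, made with RMA per the submitters' processing notes (version not given in the sources used here). RMA tends to shrink differences between dim probe sets. Log2 was taken and nothing else was normalized. Gene symbols are those of the platform's annotation, brought up to date with RefSeq identifiers (GRCm38.p6, 99.4% of identifiers found). Of the probe sets 34958 had 1 symbol, 932 had several, and 9211 are unnamed here. Each gene was represented by its brightest probe set. The comparison of fibroblasts with endothelial cells used lmFit and eBayes of limma 3.58.1 under R 4.3.3 (Benjamini-Hochberg adjustment over 12257 detected genes, 2 residual degrees of freedom). A run on simulated data had independent noise and no TAC difference. It therefore does not show how well these p-values hold, since their spread comes from TAC against sham. Other comparisons set 1 array against 1 and have no test. The number of arrays limits the precision. Whether arrays of 1 surgery share hearts is not given, and 0 of 15 pairs of arrays held identical values. The members, lists and tests were chosen with earlier results of these data known. Beside the members, the text names from each list the genes with the largest differences by a fixed rule: 4 by the fibroblast TAC difference, 2 by the cell type difference among those called and 2 by the endothelial TAC difference, of which some are left out here. Genes of like pattern were the 3 with the highest correlation.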

Additional observations from a re-analysis of the deposited data

Results flagged for a closer look

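Itga1 differed between the cell types in its response to TAC: both fibroblast populations were higher after TAC, each by 1.21, and the endothelial cells were lower, at -0.55. The fibroblast mean minus endothelial response was 1.76 on the log2 scale, and this difference was not tested. On its second probe set the responses ran the same ways, 0.67 and 0.37 in fibroblasts and -1.0 in endothelial cells.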

How the results depend on the processing

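Itga6, Itga8 and Itgb5 kept their calls between the cell types under all 16 alternative fits. Itgav lost its call with the mean of all probe sets (limma adjusted p = 0.0672) and without the endothelial sham array (0.0818). The number of members called higher in endothelial cells was 1 and became 2, with Itga1 added, with the mean of all probe sets, without probe sets that carry a suffix, under quantile normalization, with a floor at the 25th percentile, with surgery as a block, with the 6 arrays entered singly and with an intensity trend, and leaving out 1 array gave 1 to 2. The Itga5 difference, which was not called, turned to 0.23 without the endothelial TAC array, and its values with 1 array left out ran between -0.52 and 0.23. A lone endothelial array is assumed to vary as the fibroblast values do. The fit with the 6 arrays entered singly treats the traced and untraced arrays of 1 surgery as independent, although they may share hearts. Members at least 2-fold higher after TAC in both fibroblast populations numbered 1 and became 0 with the mean of all probe sets and 2 at a 1.5-fold limit, and leaving out the arrays of 1 population gave 1 to 2. Members at least 2-fold lower in both were 0 and became 1 (Itga8) at a 1.5-fold limit, as in endothelial cells, where 0 became 1 (Itga8). Members at least 2-fold higher in endothelial cells after TAC were 2 and became 1, Itgb3, with the mean of all probe sets and under quantile normalization. The other counts stayed within 1.5 times. By replicate number no paired analysis was possible because all 6 arrays carry the number 1. The fit with surgery as a block, which pairs the cell types by surgery, also called Itga1 (limma adjusted p = 0.0183) and Itgb3 (0.0104). With 1 array per group, TAC and lineage differences have no error of their own.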
